A study of Mus musculus with 6 samples.

Results

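The immediate early genes described here are Fos, Fosb, Jun, Junb, Egr1, Egr2, Ier2, Atf3, Btg2 and Dusp1. They were chosen by name, with earlier results of these data known. All 10 were found among the 54735 gene symbols counted in pancreas RNA. Whole pancreas was taken from mouse embryos at e16.5, and RNA of 6 pancreata was sequenced. The 3 RARdn samples had the genotype Neurog3:cre;RARdnfl/fl, and the 3 control samples had Neurog3:cre alone, so both groups carried the cre driver. RARdn stands for a retinoic acid receptor with dominant-negative action, a reading the labels do not spell out. Strain background was a mixture of C57Bl6 and 129SV in both groups. Neurog3 marks endocrine progenitors, a small part of the organ, whereas the immediate early genes can be transcribed in any of its cells. In bulk tissue, fewer cells of a type and less RNA per cell cannot be told apart.

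Immediate early genes are transcribed within minutes of a stimulus from factors already present in the cell, such as SRF with its ternary complex partners and CREB, and need no new protein. Growth factors, stress, depolarization and the handling of tissue are all known to induce them, and their transcripts decay quickly. Fos, Fosb, Jun and Junb encode subunits of the AP-1 transcription factor, Atf3 a related leucine zipper protein, and Egr1 and Egr2 zinc finger transcription factors. Ier2 encodes a small nuclear protein, Btg2 an antiproliferative cofactor that is also a p53 target, and Dusp1 a phosphatase that switches off MAP kinases.

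Gene counts were 35256531 to 52015498 in the RARdn libraries and 38572573 to 44735721 in the controls. Levels are CPM, counts scaled to a fixed library total, after TMM scaling. Acinar marker genes, the mark of pancreas, summed to 51311, 191510 and 278693 CPM in RARdn 1, 2 and 3, and to 157066 to 172250 CPM in the controls. RARdn 1 thus stood apart in acinar RNA, and it also had the most liver marker RNA, at 1465 CPM against 573 and 448 CPM in RARdn 2 and 3 and 380 to 409 CPM in the controls. Reads outside genes took 2.90% to 5.30% of all reads in RARdn libraries and 7.60% to 8.99% in controls. Transcripts of the X-linked Xist were at 0.103 to 0.230 CPM in RARdn libraries, at 0.312 CPM in control 2, and at 1158 and 1118 CPM in controls 1 and 3. Ddx3y, on the Y chromosome, was at 47.3 to 50.7 CPM in RARdn libraries and 49.8 CPM in control 2, and had no count in controls 1 and 3. By these genes control 2 was the only control of the same sex as the RARdn pancreata. Litter and collection day are not in the labels, so p-values measure only the spread between these samples, which may be technical.

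The bases upstream of the start site are shown for both Fos family members, whose levels differed most between control libraries, and for Junb and Btg2, whose levels differed little. Sequences are RefSeq's for GRCm38.p6, from 250 bases before the annotated start, 5′ to 3′, and capitals mark TGACG on either strand and TATAAA on the sense strand.
Fos (chr12:85473640-85473889, plus strand): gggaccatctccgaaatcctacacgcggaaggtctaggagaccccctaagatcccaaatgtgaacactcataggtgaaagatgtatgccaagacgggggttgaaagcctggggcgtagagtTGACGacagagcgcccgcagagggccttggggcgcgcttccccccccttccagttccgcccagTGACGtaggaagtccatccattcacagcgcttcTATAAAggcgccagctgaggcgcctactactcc
Fosb (chr7:19310046-19310295, minus strand): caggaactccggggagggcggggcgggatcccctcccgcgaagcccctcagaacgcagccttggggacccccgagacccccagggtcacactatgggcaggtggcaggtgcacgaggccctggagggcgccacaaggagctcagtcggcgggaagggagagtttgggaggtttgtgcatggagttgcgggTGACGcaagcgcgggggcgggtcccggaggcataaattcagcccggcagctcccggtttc
Junb (chr8:84978749-84978998, minus strand): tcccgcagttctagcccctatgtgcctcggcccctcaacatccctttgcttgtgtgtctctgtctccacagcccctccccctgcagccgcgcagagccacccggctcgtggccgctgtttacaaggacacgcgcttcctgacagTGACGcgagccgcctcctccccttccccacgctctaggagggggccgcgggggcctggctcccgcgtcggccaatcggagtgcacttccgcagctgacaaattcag
Btg2 (chr1:134079156-134079405, minus strand): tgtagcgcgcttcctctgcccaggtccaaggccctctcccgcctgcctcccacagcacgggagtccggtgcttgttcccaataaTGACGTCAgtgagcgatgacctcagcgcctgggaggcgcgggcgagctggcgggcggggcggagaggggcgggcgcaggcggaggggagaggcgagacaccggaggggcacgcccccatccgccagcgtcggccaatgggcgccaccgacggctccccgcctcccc
TGACG is the core of the CREB and ATF recognition motif, and TGACGTCA is that motif in full, which holds TGACG on each strand. Windows of 8 members were searched, and those of Egr1 and Ier2 were not. Of the 8, 7 held TGACG, against 17.8% of 32851 windows of the same length. Egr2 had 5 windows and was counted once. Full TGACGTCA stood upstream of Btg2, at -166 from the start, and of Dusp1, at -143, and in 1.55% of all windows. Fos had TGACG at -129 and -66 and TATAAA at -33, and TATAAA was in 7.59% of all windows. Fosb had TGACG at -60 and Junb at -106. The CArG box, the SRF motif, was found in windows of Egr2 alone among the 8 and in 1.47% of all windows. Egr1 and bases more than 250 upstream of any start were not searched, so SRF sites there would be missed. The AP-1 motif TGACTCA was in none of the 8 and in 4.46% of all windows, searched on both strands. Jun held none of these motifs in its window. TGACG stood in the printed windows of genes with a wide spread and of genes with a narrow one. The printed genes were picked by their spread and 7 of the 8 members searched held TGACG, so these windows cannot relate it to spread. That relation was not tested.

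Fos, the prototype AP-1 subunit (chromosome 12, 85473890 to 85477273, GRCm38), was high in 1 control library and low in the other 5. Its level was 1.86, 1.91 and 1.88 CPM in RARdn 1, 2 and 3, against 2.04, 18.02 and 2.99 CPM in control 1, 2 and 3. The counts behind these values were 109, 97 and 57 in RARdn libraries and 78, 809 and 129 in controls. RARdn libraries lay below each control, and control 2 lay 6.03-fold above the next highest library. Exact 95% Poisson intervals, which cover counting error only, ran from 16.8 to 19.3 CPM in control 2 and from 2.49 to 3.55 CPM in control 3. The interval of control 1, from 1.61 to 2.54 CPM, overlapped that of each RARdn library, so these did not differ beyond counting error. With plain CPM the groups overlapped, since RARdn 1 was at 2.27 and control 1 at 2.02 CPM. The log2 fold change was -2.03 (SE 0.73, adjusted p = 0.151) and did not pass. Without control 2 it was -0.42 (SE 0.30, adjusted p = 0.582).

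Fosb, a close relative of Fos (chromosome 7, 19302696 to 19310051), was likewise high in control 2 alone. It was at 0.718, 0.631 and 0.757 CPM in RARdn 1, 2 and 3, against 0.809, 9.07 and 0.648 CPM in control 1, 2 and 3. Control 2 stood 11.2-fold above the next highest library, on 407 counts against 23 to 42 in RARdn libraries and 31 and 28 in controls 1 and 3. The other 5 libraries did not differ beyond counting error, since their Poisson intervals all overlapped. Its log2 fold change was -2.33 (SE 0.93, adjusted p = 0.186), and -0.06 (SE 0.40, adjusted p = 0.968) without control 2. DESeq2 gave Fosb no adjusted p.

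Jun, the main DNA-binding partner of Fos in AP-1 (chromosome 4, 95049034 to 95052222), differed from the Fos genes in its group pattern. It was at 94.2, 99.4 and 104 CPM in RARdn 1, 2 and 3, against 69.1, 124 and 73.9 CPM in control 1, 2 and 3. RARdn libraries lay between control 2 and the other controls. The log2 fold change was 0.15 (SE 0.21, adjusted p = 0.707). Without control 2 it was 0.47 (SE 0.14, adjusted p = 0.181), still not past the threshold. Jun shares exonic sequence with the opposite-strand gene Junos, which was at 1.47 to 1.58 CPM in RARdn libraries and 1.72 to 2.29 CPM in controls.

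Junb (chromosome 8, 84974484 to 84978718) was at 9.76, 13.7 and 11.7 CPM in RARdn 1, 2 and 3, against 15.1, 15.7 and 14.7 CPM in control 1, 2 and 3. Every RARdn library lay below every control, also with plain CPM, and the controls were nearly level. Its log2 fold change of -0.37 (SE 0.15, adjusted p = 0.183) did not pass, and it was -0.35 (SE 0.18, adjusted p = 0.442) without control 2. Junb was thus the member whose fold change depended least on control 2 among those with an unadjusted p under 0.05. It overlaps Prdx2 on the other strand, which was at 149 to 172 CPM in RARdn libraries and 140 to 154 CPM in controls.

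Atf3, induced by many forms of cell stress (chromosome 1, 191170296 to 191218039), was at 3.25, 5.27 and 4.90 CPM in RARdn 1, 2 and 3, against 4.96, 8.15 and 2.78 CPM in control 1, 2 and 3. Groups overlapped, and the lowest and highest of the 6 libraries were both controls. Its log2 fold change was -0.25 (SE 0.37, adjusted p = 0.738), and 0.21 (SE 0.34, adjusted p = 0.829) without control 2, a change of sign.

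Egr1, a zinc finger factor that MAP kinase signals induce (chromosome 18, 34859823 to 34864984), was at 26.1, 18.2 and 18.2 CPM in RARdn 1, 2 and 3. Controls 1, 2 and 3 were at 16.1, 42.3 and 16.8 CPM. Control 2 was the highest library and RARdn 1 came next, while controls 1 and 3 were the lowest. The log2 fold change was -0.26 (SE 0.36, adjusted p = 0.706) and turned to 0.34 (SE 0.19, adjusted p = 0.470) without control 2. Egr2, a factor best known from hindbrain and Schwann cells (chromosome 10, 67535475 to 67542188), had only 46, 40 and 14 counts in RARdn 1, 2 and 3 and 13, 40 and 18 in control 1, 2 and 3. That corresponded to 0.786, 0.789 and 0.461 CPM in RARdn libraries and 0.339, 0.891 and 0.417 CPM in controls. The 3 highest Egr2 values did not differ beyond counting error, and with plain CPM RARdn 1, at 0.960 CPM, was above control 2, at 0.894 CPM. Its log2 fold change was 0.32 (SE 0.45, adjusted p = 0.729), and 0.85 (SE 0.48, adjusted p = 0.474) without control 2.

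Ier2 (chromosome 8, 84661331 to 84662852) was at 37.8, 40.5 and 50.4 CPM in RARdn 1, 2 and 3, against 50.1, 56.5 and 43.1 CPM in control 1, 2 and 3. The groups overlapped, and control 2 was the highest by a small margin of 1.12-fold (log2 fold change -0.22, SE 0.14, adjusted p = 0.392). Btg2 (chromosome 1, 134075170 to 134079120) was at 78.8, 86.2 and 115 CPM in RARdn 1, 2 and 3, against 105, 124 and 107 CPM in control 1, 2 and 3. RARdn 3 lay within the control range and the other RARdn libraries below it (log2 -0.26, SE 0.15, adjusted p = 0.347). Without RARdn 3, Btg2 passed as lower (log2 -0.43, adjusted p = 0.0339). Over all genes that fit called 1404 higher and 1576 lower, against 262 and 505 with all libraries. In the RARdn libraries Jun, Ier2 and Btg2, 3 of the 10, followed the order of the acinar marker sum, which was lowest in RARdn 1 and highest in RARdn 3. Of all genes tested 17.8% did so, and the part of acinar RNA in their levels was not tested. Dusp1, the feedback phosphatase of the pathway (chromosome 17, 26505590 to 26562128), was at 11.8, 15.4 and 10.53 CPM in RARdn 1, 2 and 3, against 13.99, 20.6 and 12.3 CPM in control 1, 2 and 3. Its groups overlapped (log2 -0.31, SE 0.22, adjusted p = 0.443), and without control 2 the log2 fold change was -0.06 (SE 0.20). Dusp1 overlaps Ergic1 on the other strand, which was at 134 to 205 CPM in RARdn libraries and 154 to 167 CPM in controls.

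**Figure D1:**
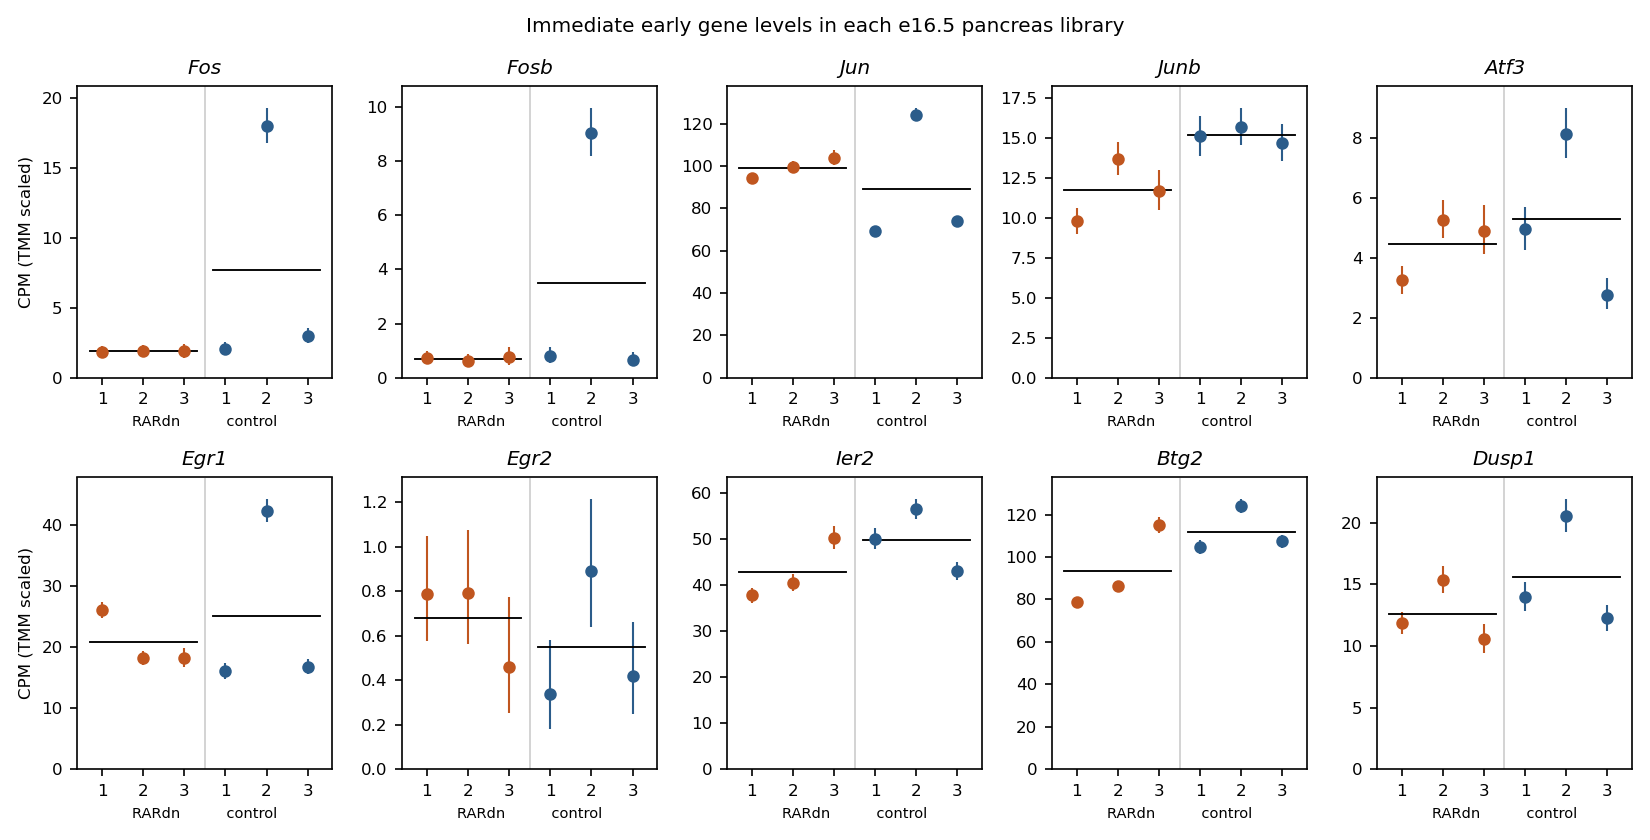
Level of each immediate early gene in each library (CPM after TMM scaling, linear axes from 0). RARdn 1 to 3 stand left and control 1 to 3 right, points are libraries, vertical bars are exact 95% Poisson intervals, and horizontal lines are group means. Control 2 is the highest point in each panel, by 11.2-fold for Fosb and 6.03-fold for Fos, and by 1.04-fold for Junb.

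The comparison of RARdn with control pancreas called none of the 10 genes with edgeR at an adjusted p under 0.05, in either direction. Over all 19070 genes tested, 1.37% were called higher and 2.65% lower in RARdn pancreas. Fos, Fosb and Junb had an unadjusted p under 0.05, all lower, where 12% of genes tested had one as higher and 10.2% as lower. DESeq2 called 0 members, where it called 4.17% of genes higher and 5.17% lower, and limma-voom called 0, where it called 1.42% higher and 2.75% lower. Without a filter on low counts edgeR called Fos and Fosb lower, where it called 3.31% of genes higher and 3.61% lower. Of the 10, 8 had a log2 fold change below 0 and 2 above. The median over the members was -0.26, beside 0.00051 over all genes tested. Every RARdn library lay below every control for 2 members, Fos and Junb, and above for none, where 13.7% of the genes tested lay below and 13.9% above. A share of 2 in 10 is near that background.

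Removing control 2 moved most of these values. It left only controls of the other sex than the RARdn pancreata, so genotype and sex cannot be told apart in that fit. With the other 5 libraries 6 members had a log2 fold change below 0 and 4 above, their median was -0.06, and edgeR called 0, with Jun alone at an unadjusted p under 0.05, as higher, where 7.28% of genes had one as higher and 6.91% as lower. Over all genes, that fit called 0.148% higher and 0.361% lower. The sign turned for Egr1 and Atf3, and Fos and Fosb moved closest to 0 of all fits that left out 1 library. A fit with a term for sex called Fos (log2 -3.26, adjusted p = 0.00523) and Fosb (log2 -3.69, adjusted p = 0.00728) lower in RARdn pancreas. It called 0.0262% of all genes higher and 0.294% lower. Since control 2 was the only control of the RARdn sex, that fit sets the RARdn libraries against control 2 alone. Control 2 has no spread of its own there and is assumed to vary like the other libraries, so these calls compare 1 library with 3.

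**Figure D2:**
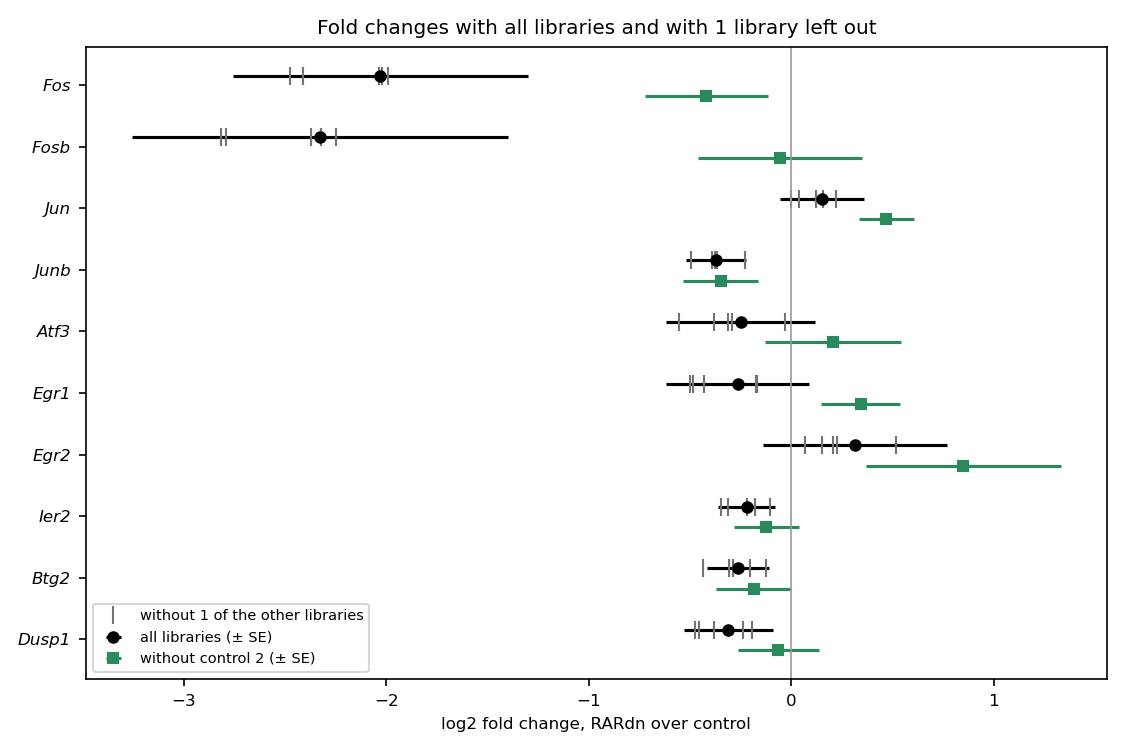
Log2 fold change of each gene, RARdn over control. Black points are fits of all 6 libraries with SE, grey ticks are fits without 1 library other than control 2, and green squares are the fit without control 2 with SE. For Fos and Fosb the black points lie at -2.03 and -2.33 and the green squares at -0.42 and -0.06, while for Junb they lie at -0.37 and -0.35. Without control 2 the groups also differ in sex.

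Spread between the control libraries of these genes came mostly with control 2. The highest control was 8.85-fold above the lowest for Fos and 13.99-fold for Fosb, against 1.03-fold and 1.199-fold among RARdn libraries. In the controls this range was 2.93-fold for Atf3, 2.63-fold for both Egr1 and Egr2, and 1.80-fold for Jun. In RARdn libraries the same genes had ranges of 1.62-fold, 1.43-fold, 1.71-fold and 1.10-fold. For 7 of the 10 members the range was wider in controls, and for Junb, Ier2 and Btg2 it was wider in RARdn libraries. The median range over the members was 1.41-fold in RARdn libraries and 2.21-fold in controls, while over all genes tested it was 1.40-fold in RARdn libraries and 1.22-fold in controls. Between controls 1 and 3 alone the range was 1.47-fold for Fos, 1.25-fold for Fosb, 1.79-fold for Atf3 and 1.03-fold to 1.23-fold for the other 7. Without control 2, 3 of the 10 (Fos, Fosb and Atf3) had a wider range in controls than in RARdn libraries. The median range was then 1.15-fold over the members and also over all genes tested, from 2 libraries, which give a narrower range than 3 by construction. Among all genes tested, 0.912% had a smaller range in RARdn libraries than Fos, and 99.3% had a smaller one in controls. For Fosb these shares were 23.4% in RARdn libraries and 99.6% in controls. The narrow RARdn range of Fos came with TMM scaling. With plain CPM Fos was at 2.27, 1.86 and 1.62 CPM in RARdn 1, 2 and 3. On 109, 97 and 57 counts its Poisson intervals there overlapped, and they were wider than that range.

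**Figure D3:**
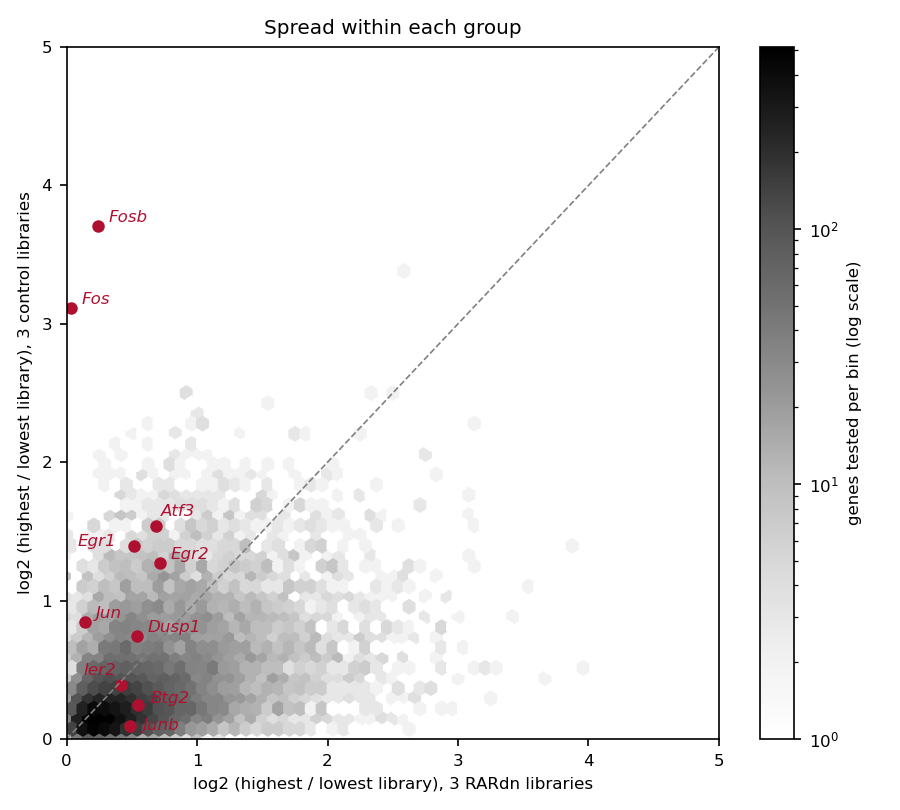
Range within each group, as log2 of the highest over the lowest library (CPM after TMM scaling) with 0.05 CPM added, for RARdn (horizontal) and control (vertical). Grey hexagons count the genes tested, 29 of which lie beyond the axes, red points are the immediate early genes, and the dashed line marks equal ranges. Fos and Fosb lie at the top left, with a narrow range in RARdn libraries and a wide one in controls, and Junb lies near the bottom.

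Control 2 was the highest of the 6 libraries for all 10 genes with TMM scaling and with DESeq2's size factors, and for 9 with plain CPM, where Egr2 was the exception. Among all genes tested, control 2 was the highest for 12% with TMM scaling, 11.7% with DESeq2's size factors and 10.9% with plain CPM. It lay at least 2-fold above both other controls for Fos, Fosb, Egr1 and Egr2, 4 of the 10, against 0.86% of genes tested. At least 1.5-fold above both held for 6 of the 10, adding Jun and Atf3, against 2.43%. Relative to the mean of controls 1 and 3, control 2 was 12.4-fold higher for Fosb, 7.18-fold for Fos, 2.58-fold for Egr1, 2.36-fold for Egr2, 2.11-fold for Atf3, 1.74-fold for Jun and 1.57-fold for Dusp1. For Ier2, Btg2 and Junb it was 1.21-fold, 1.17-fold and 1.05-fold higher. The library was singled out after its values were seen, and the 10 genes were chosen with earlier results of these data known. The shares over all genes are thus a description and not a test.

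Values that could move with control 2 were read beside this. Its sex set it apart from controls 1 and 3, and among the controls sex and this library cannot be told apart. Its depth, at 44735721 gene counts, and its share of reads outside genes, at 8.88%, lay within the range of the 6 libraries. None of the 14 marker lists for cell types had its highest sum in control 2. Control 2 had the lowest sum of the 6 libraries for mesenchyme, mesothelium and liver, at 5088, 53.6 and 380 CPM. For these, control 1 was at 6870, 96.8 and 409 CPM and control 3 at 5778, 60.3 and 409 CPM. The neutrophil sum of control 2 was 14.5 CPM, against 14.4 and 5.21 CPM in controls 1 and 3 and up to 83.7 CPM in RARdn 1. Its endothelial and macrophage sums were 479 and 312 CPM, where those of controls 1 and 3 were 551 and 455 CPM for endothelium and 443 and 325 CPM for macrophages. Of the marker genes, Alb alone was at least 1.5-fold above both other controls there, at 2.92 CPM against 1.36 and 1.18 CPM, while RARdn 1, 2 and 3 had 597, 137 and 3.19 CPM. The labels give no time between dissection and lysis, and the part of handling in the spread was not tested.

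A ratio of 2 genes in the same library is free of scaling. Fos counts per 100 Jun counts were 1.98, 1.92 and 1.80 in RARdn 1, 2 and 3, against 2.95, 14.5 and 4.04 in control 1, 2 and 3. Fosb counts per 100 Jun counts were 0.762, 0.635 and 0.728 in RARdn libraries, against 1.17, 7.29 and 0.877 in controls. Both ratios were lower in each RARdn library than in any control. In controls 1 and 3 the ratios also hold a lower Jun, at 69.1 and 73.9 CPM, against 94.2 to 104 CPM in RARdn libraries. Fosb itself did not differ there beyond counting error, and neither did Fos in control 1. Junb per 100 Jun overlapped between groups, at 10.4 to 13.7 in RARdn libraries and 12.6 to 21.8 in controls. Egr1 per 100 Jun also overlapped, at 17.5 to 27.7 in RARdn libraries and 22.7 to 34.0 in controls. These ratios were chosen after their values were seen and carry no test.

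Compared per length, as CPM per kilobase of exon (RPKM), the members spanned a wide range of levels. In RARdn libraries Btg2 averaged 34.0, Jun 31.1 and Ier2 28.2 RPKM, and in controls 40.8, 27.9 and 32.8 RPKM. Their library values overlapped in RARdn pancreas, whereas in the controls Btg2, at 38.1 to 45.2 RPKM, lay above Ier2, at 28.3 to 37.1 RPKM. Junb, Egr1, Dusp1 and Atf3 followed at 5.09, 4.65, 3.80 and 2.08 RPKM in RARdn libraries and 6.58, 5.59, 4.71 and 2.46 RPKM in controls. Neighbours in this order overlapped in both groups, except that in RARdn libraries Atf3, at 1.51 to 2.44 RPKM, lay below Dusp1, at 3.18 to 4.64 RPKM. Fos averaged 0.801 RPKM in RARdn libraries and was at 0.866, 7.66 and 1.27 RPKM in control 1, 2 and 3. Egr2 averaged 0.200 RPKM in RARdn libraries and 0.162 RPKM in controls. Fosb averaged 0.112 RPKM in RARdn libraries and was at 0.130, 1.45 and 0.104 RPKM in control 1, 2 and 3. Within the Fos family (Fos, Fosb, Fosl1 and Fosl2), Fosl2 held 70.8% to 71.2% of the per-length level in RARdn libraries and 68.3%, 27.4% and 64.9% in control 1, 2 and 3. In control 2 the largest share was that of Fos, at 57.8%, which elsewhere was 14.1% to 16.2% in RARdn libraries and 16.1% and 25.6% in controls 1 and 3. Within the Jun family, Jun held 38.2% to 45.9% in RARdn libraries and 27.6%, 42.2% and 34.8% in control 1, 2 and 3, most of the rest being Jund.

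Among other immediate early transcription factors control 2 was the highest library for 2 of 16, Egr3 and Nr4a1, where it was so for 12% of all genes tested. Of 17 listed these 16 were tested and edgeR called 0, where 3 had an unadjusted p under 0.05 as higher and 1 as lower, and DESeq2 called 3 higher. For this and the other lists, the shares over all genes are 12% higher and 10.2% lower at that unadjusted p, and 4.17% higher with DESeq2. The median over the 16 was 0.12 on the log2 scale. Klf6, a zinc finger factor, was at 50.5, 65.9 and 51.7 CPM in RARdn 1, 2 and 3, against 37.2, 41.8 and 33.6 CPM in control 1, 2 and 3 (log2 0.58, SE 0.13, adjusted p = 0.0501). Klf4, its relative, was at 40.1, 48.6 and 36.8 CPM in RARdn libraries, against 28.8, 31.7 and 29.3 CPM in controls (log2 0.48, SE 0.12, adjusted p = 0.0642). For both genes every RARdn library lay above every control, as for 4 of the 16 and 13.9% of all genes tested. DESeq2 called both (adjusted p = 0.00742 and 0.0198). They were named for the lowest p of their list, so these values from the same counts are no further support. The mesenchyme marker sum also lay above every control in each RARdn library, at 8458 to 9555 CPM against 5088 to 6870 CPM. So did the pan-endocrine, smooth muscle, neutrophil, lymphoid and liver sums, and the other marker lists did not. The part of any of these cell types in the levels of Klf6 and Klf4 was not tested. Jund was at 51.1 to 79.5 CPM in RARdn libraries and 61.9 to 83.8 CPM in controls (adjusted p = 0.546), and Myc at 55.4 to 83.9 CPM and 63.6 to 74.2 CPM (adjusted p = 0.904). Egr3, a relative of Egr1, was at 0.803 to 0.823 CPM in RARdn libraries and at 0.444, 0.958 and 0.139 CPM in control 1, 2 and 3.

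Of 35 other immediate early effectors and feedback genes, 34 were tested and edgeR called 0, where 5 had an unadjusted p under 0.05 as higher and 1 as lower, and DESeq2 called 1 higher. The median over the 34 was 0.11 on the log2 scale. The gene called by DESeq2 was Rhob, a small GTPase gene, at 123, 121 and 110 CPM in RARdn 1, 2 and 3, against 88.8, 96.3 and 80.8 CPM in control 1, 2 and 3 (edgeR log2 0.41, SE 0.11, adjusted p = 0.0684). Gadd45b, a stress sensor gene, was at 31.7, 33.6 and 38.2 CPM in RARdn libraries, against 42.6, 45.95 and 46.3 CPM in controls (log2 -0.38, SE 0.10, adjusted p = 0.0761). The most abundant were Plk2, a polo-like kinase gene (adjusted p = 0.633), and Mcl1, a survival gene of the Bcl2 family (adjusted p = 0.331). Control 2 was the highest library for 8 of the 34, where it was so for 12% of all genes tested. Cyr61, a matricellular protein gene and known immediate early target, was at 15.3, 14.2 and 15.3 CPM in RARdn 1, 2 and 3, against 10.9, 34.9 and 10.49 CPM in control 1, 2 and 3. It was the only one of the 34 at least 2-fold above both other controls in control 2, against 0.86% of all genes tested.

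**Figure D4:**
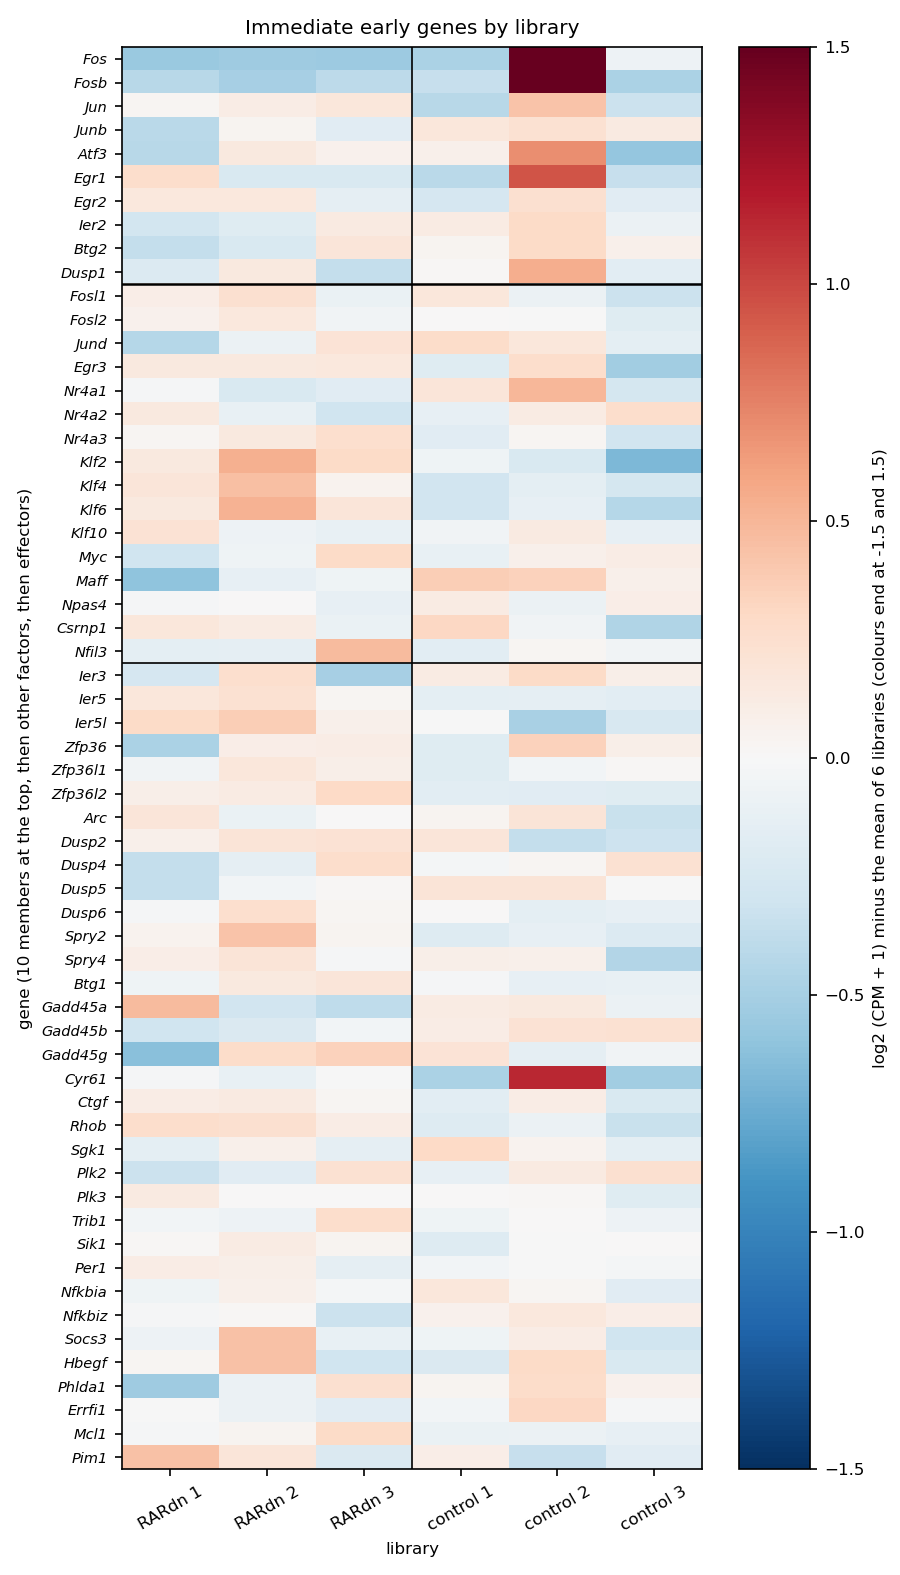
Log2 of CPM plus 1, minus the mean of the 6 libraries, for the 10 members (top block), the other tested immediate early factors (middle) and the effectors and feedback genes (bottom). Columns are RARdn 1 to 3 and then control 1 to 3, and red marks values above the mean and blue below. The control 2 column is red over the top block and for Cyr61, and mixed elsewhere, while Klf2, Klf4 and Klf6 are red in RARdn columns.

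Of 22 kinases and factors upstream of these genes, and their partners, edgeR called 0, where 3 had an unadjusted p under 0.05 as higher and 2 as lower, and DESeq2 called 2 higher, with a median of 0.08 on the log2 scale. Nab2, a co-repressor of Egr proteins, was at 21.4, 22.7 and 15.6 CPM in RARdn 1, 2 and 3, against 13.8, 12.2 and 10.4 CPM in control 1, 2 and 3 (log2 0.72, SE 0.17, adjusted p = 0.0559). Mkl1, an actin-regulated coactivator of SRF, was at 31.5, 32.6 and 31.6 CPM in RARdn libraries, against 25.8, 23.9 and 24.3 CPM in controls (log2 0.37, SE 0.092, adjusted p = 0.0627). Both lay higher in every RARdn library than in any control, as did 3 of the 22 and 13.9% of all genes tested. DESeq2 called both (adjusted p = 0.00421 and 0.0344). They were named for the lowest p of their list, so these values from the same counts are no further support. Nab2 overlaps Stat6, Nemp1 and Gm16229, and Mkl1 overlaps Sgsm3, on the other strand. Map2k2, a kinase gene named for its abundance, had a log2 fold change of -0.20 (adjusted p = 0.517).

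Stress genes of other kinds gave no call with edgeR. Of 12 heat shock genes, 1 had an unadjusted p under 0.05 as higher and 2 as lower, and DESeq2 called 0. The median over the list of log2 levels, centred on each gene's mean, was 0.02, -0.08 and 0.06 log2 units in RARdn 1, 2 and 3, against -0.04, 0.09 and -0.08 in control 1, 2 and 3. The same measure for the 10 immediate early genes was -0.32, -0.07 and -0.15 in RARdn libraries, against -0.12, 0.49 and -0.16 in controls. Dnajb1, an Hsp70 co-chaperone gene, had a log2 fold change of 0.30 (adjusted p = 0.126), and Hspd1, a mitochondrial chaperonin gene, one of -0.52 (adjusted p = 0.172). The most abundant, the chaperone genes Hsp90ab1 and Hspa8, stood at log2 -0.23 (adjusted p = 0.519) for Hsp90ab1 and -0.34 (adjusted p = 0.253) for Hspa8. The inducible Hsp70 gene Hspa1a was at 1.22 to 1.65 CPM in RARdn libraries and at 1.12, 1.74 and 0.810 CPM in control 1, 2 and 3.

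Of 9 genes of the integrated stress response, to which Atf3 is linked, 1 had an unadjusted p under 0.05 with edgeR, and DESeq2 called 0, with a list median of -0.03 on the log2 scale. That gene was Ddit3, the transcription factor CHOP, at 9.45 to 11.2 CPM in RARdn libraries and 6.83 to 8.48 CPM in controls (log2 0.38, SE 0.15, adjusted p = 0.184). Ddit3 overlaps Mars and Gm4189 on the other strand. Ddit4, an inhibitor of mTOR signalling, had a log2 fold change of -0.28 (adjusted p = 0.325). The most abundant were Asns, asparagine synthetase (log2 -0.50, adjusted p = 0.380), and Atf4, the factor that drives the response (log2 -0.03, adjusted p = 0.911). Of 10 p53 targets, listed because Btg2 is one, 2 had an unadjusted p under 0.05 as higher. Phlda3, an inhibitor of Akt, was at 13.2, 20.2 and 18.9 CPM in RARdn 1, 2 and 3, against 12.5, 9.31 and 8.57 CPM in control 1, 2 and 3 (log2 0.78, SE 0.20, adjusted p = 0.0722), and DESeq2 called it (adjusted p = 0.00889). Eda2r, a receptor of the TNF family, had a log2 fold change of 0.57 (adjusted p = 0.173). Ccng1 and the cell cycle inhibitor gene Cdkn1a, the most abundant, stood at log2 0.21 (adjusted p = 0.457) for Ccng1 and -0.19 (adjusted p = 0.728) for Cdkn1a. Btg2 was at -0.26 on that scale, and the median over the 10 targets was 0.06.

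Genes whose levels ran most like the mean profile of the 10 were sought among the 11122 genes that averaged 5 CPM or more. Over the 6 libraries Pearson's r was 0.973 for Zfp428, 0.968 for Rasgrp3, 0.968 for Cutc, 0.938 for Sec11a and 0.928 for Cyr61. All are measured in the same libraries as the members, and control 2 was the highest of the 6 libraries for each. The mean profile itself stood at 0.80 log2 units in control 2 and at -0.22 to -0.11 in the other libraries. Genes picked as the most like it are therefore high in control 2 by selection, and their r carries no test. Rasgrp3 encodes an activator of Ras proteins and Sec11a a subunit of the signal peptidase. Zfp428 was at 5.48 to 5.53 CPM in RARdn libraries and 5.12, 7.997 and 4.98 CPM in control 1, 2 and 3. Of the 5, Cyr61 alone differed by over 2-fold between control 2 and the other controls.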

How the data were processed

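The authors deposited raw read counts per gene symbol, 1 table per sample with 5 summary lines. FastQC, cutadapt, HISAT2, HTSeq, bedtools and DESeq2 and the builds mm10 and GRCm38 are named, per the submitters' processing notes. Tool versions, annotation and strand setting were not stated in what was used, so reads of genes that overlap on opposite strands cannot be told apart. This holds also for Jund, Hspd1, Ddit3 and Cdkn1a. Summary lines, 25.4% to 31.5% of reads, stayed out of library sizes and tests.

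The test was edgeR 4.0.16 under R 4.3.3 (filterByExpr, TMM, glmQLFit and glmQLFTest, 2-sided, genotype as the only term) and adjusted over 19070 genes by Benjamini-Hochberg. Calls needed an adjusted p below 0.05. Log2 fold changes are RARdn over control, and each SE is the size of the log2 fold change divided by the root of its F statistic. Alternatives were DESeq2 1.42.0, limma-voom 3.58.1, other scalings and filters, a replicate block, a sex term and leaving out each library. Positions and exon lengths are from GENCODE M21 (GRCm38).

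Members and lists were chosen with earlier results of these data known. From each other list the text names up to 4 called genes, or the 2 lowest p-values, and the 2 most abundant, and it names the 5 genes most like the members. Of the genes this rule gives, 1 is not reported here. Egr3, Nr4a1, Klf2, Cyr61 among the effectors, Hspa1a, Alb and genes named for overlap were added after their values were seen.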

Additional observations from a re-analysis of the deposited data

How the results depend on the processing

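Counts over all genes moved most. Against 262 genes higher and 505 lower in RARdn pancreas, the fit without a filter gave 1123 and 1223, DESeq2 1016 and 1260, a minimum of 1 CPM in 3 libraries 77 and 140, and the sex term 5 and 56. Without TMM scaling 125 were higher. With 1 library left out, 22 (without RARdn 2) to 1404 (without RARdn 3) were higher and 71 (without control 2) to 1576 (without RARdn 3) lower; without controls 1, 2 and 3 in turn, 125, 29 and 28 were higher. Of the 10 members 0 were called, against 2 without a filter and 2 with the sex term (Fos and Fosb both times), and 0 to 1 with 1 library left out (Btg2, without RARdn 3). Without a filter Fos and Fosb were at log2 -2.004 and -2.30 (adjusted p = 0.0151 and 0.0296), and with the sex term -3.26 and -3.69. The sex term also turned Jun to -0.33 and Egr2 to -0.37. With 1 library left out, Egr1 ran from -0.50 to 0.34, Atf3 from -0.55 to 0.21 and Btg2 from -0.43 to -0.12. The cause was not tested, except that fewer samples or another set of genes enter each fit. Of 147 fits of single genes with an adjusted p, under 15 alternatives, 138 kept direction and side of the threshold, 4 turned sign and 5 passed the threshold where the fit of all libraries did not.

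DESeq2 gave Fosb no adjusted p. With 1 library left out, an alternative chosen after seeing the data, 3 (without control 2) to 9 (without RARdn 3) of the 10 members had a wider range in controls.

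The labels do not say that replicate numbers pair the samples. Same-numbered deviations correlated at 0.02, -0.08 and 0.20 across genes, which cannot exclude a shared litter or day. With the replicate block 0 members were called, and Fos was at -1.36 (adjusted p = 0.195). Depth limits Egr2, with 13 to 46 counts a library.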

Other observations

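Among all genes tested, 164 were at least 2-fold above both other controls in control 2, and 12 of these reached 10 CPM there. The 12 included the Y-linked genes Ddx3y, Eif2s3y, Kdm5d and Uty, which were at similar levels in the RARdn libraries. They also included pseudogenes such as Rps2-ps13, at 638 to 781 CPM in RARdn libraries and at 5.09, 390 and 4.17 CPM in control 1, 2 and 3. Control 2 exceeded every RARdn library by at least 1.5-fold for 4 of the 12, namely Egr1, Fos, Cyr61 and the predicted gene Gm43305. Gm43305 was at 7.11, 5.54 and 24.1 CPM in RARdn 1, 2 and 3, against 65.6, 132 and 17.8 CPM in control 1, 2 and 3. These genes were chosen after their values were seen.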
